A study of Bos taurus with 12 samples.

Results

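The CCN matricellular family was followed through its mRNAs CTGF, CYR61, NOV, WISP1 and WISP2, chosen by gene name from the mRNA table of the study, which makes 5 of 33714 rows. The cells were intramuscular preadipocytes, the precursors of the fat cells that lie between muscle fibres, isolated from longissimus dorsi of newborn calves of the Qinchuan breed and grown in culture. Groups were 0 d (nearly confluent cells before induction) and 3 d, 6 d and 9 d after the start of adipogenic induction. Each day had 3 libraries, which makes 12. The 3, 6 and 9 d cells received IBMX (an inhibitor of phosphodiesterases) at 0.5 mM, dexamethasone (a synthetic glucocorticoid) and insulin for 48 hours, and insulin alone afterwards, so that the 3 d cells were collected after IBMX and dexamethasone had been withdrawn. Sources differ on the amounts of the other agents: the study's methods give 1 µM dexamethasone and 2 µM insulin, and the sample labels give 1 g/mL dexamethasone and 5 µg/mL insulin. The methods speak of biological replicates without the number of animals, so the p-values below measure the spread between these libraries.

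CCN proteins are secreted into the extracellular matrix, where they act less as structural material than as adaptors between matrix, growth factors and cell surface receptors such as integrins and LRP proteins. Most members carry an insulin-like growth factor binding protein domain, a von Willebrand factor type C domain, a thrombospondin repeat and a C-terminal cystine knot, and WISP2 lacks the cystine knot. CTGF and CYR61 are known as direct targets of the Hippo pathway effectors YAP and TAZ with TEAD factors and of SRF with MRTF, and in fat cell precursors CTGF and WISP2 are known as inhibitors of adipogenesis.

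Levels are FPKM, fragments scaled to transcript length and library size, which allow levels of different genes to be set side by side. The FPKM of all mRNAs summed to between 1221194 and 1371794 in the 12 libraries, and the number of fragments behind a single value is unknown. Fold changes are differences of log2(FPKM + 0.1) from limma, fitted to the 15402 mRNAs with a mean FPKM of at least 0.1. An mRNA was called where its log2 fold change exceeded 1 in size with a Benjamini-Hochberg adjusted p under 0.05 over all mRNAs of the comparison. All 5 members passed the filter. The 3, 6 and 9 d comparisons share the 0 d libraries.

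The family had its low point at 3 d. In bulk samples fewer cells of a type and less RNA per cell cannot be told apart. Of its 5 members, 4 were called lower at 3 d than at 0 d, against 15.2% of all tested mRNAs, and 0 were called higher, against 8.06%. At 6 d, 2 members were called lower than at 0 d (7.97% of all tested mRNAs) and 0 higher (3.39%). At 9 d, 1 member was called lower than at 0 d (7.47%) and 0 higher (3.41%). From 3 d to 6 d all 5 members were called higher (9.85%) and 0 lower (9.23%), and from 6 d to 9 d 1 member was called higher (2.55%) and 0 lower (1.89%). The median log2 fold change over all tested mRNAs was −0.06, −0.15 and −0.19 at 3, 6 and 9 d against 0 d. Rescaling the libraries by their median ratio shifted it by 0.08, 0.15 and 0.19.

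**Figure D1:**
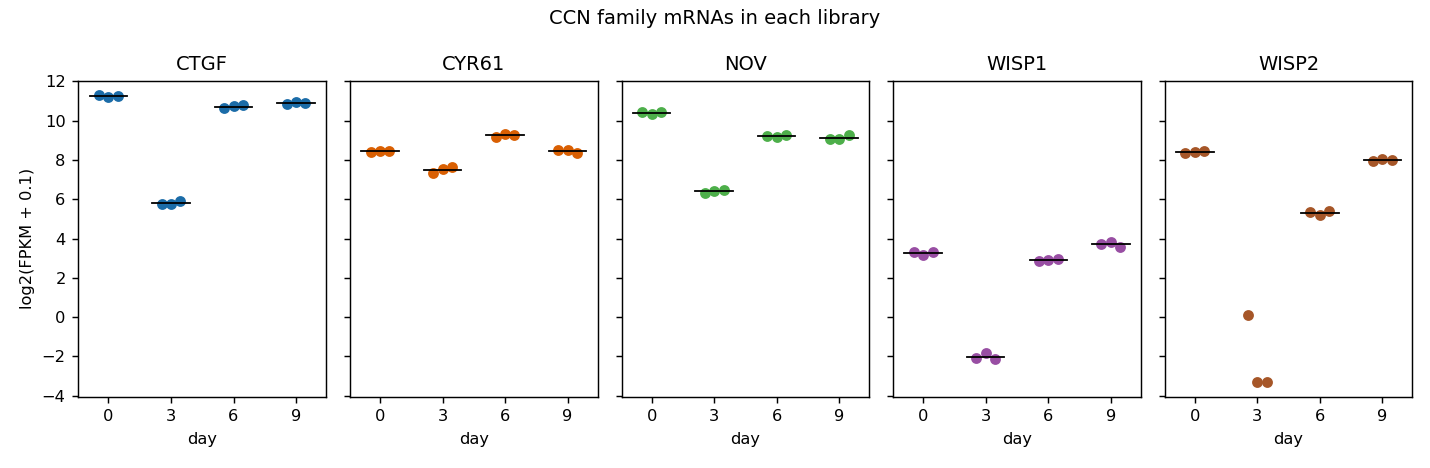
Level of each CCN family mRNA in the 12 libraries, as log2(FPKM + 0.1) on the vertical axis and day on the horizontal axis. Points are libraries and bars are means of 3, left out for WISP2 at 3 d where 2 libraries are listed at 0. Every member has its lowest libraries at 3 d, and WISP2 alone is listed at 0 in any library.

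CTGF (CCN2 in current nomenclature), a profibrotic adaptor of transforming growth factor beta signalling, was the most abundant member at 0, 6 and 9 d. In the 0 d libraries it stood at 2500, 2345 and 2463 FPKM. At 3 d the values were 54.4, 55.0 and 59.9 FPKM. At 6 d they were 1581, 1696 and 1769 FPKM, and at 9 d 1842, 1999 and 1880 FPKM. The 3 d libraries lay far below all others, no 2 days overlapped, and the order of days was 0, 9, 6 and 3 d. Among all mRNAs ranked by mean FPKM, the places of CTGF were 56, 2229, 94 and 75 on the successive days. The mean at 3 d was 43.2-fold lower than at 0 d, and the fitted value fell by 5.43 on the log2 scale (SE 0.0589, limma adjusted p = 5.95e-12). By 6 d the mean was 29.8-fold higher than at 3 d (log2 4.90, limma adjusted p = 1.36e-11) and had reached 69.0% ± 3.88 (SD, n = 3) of the 0 d mean. At 9 d it was 78.3% ± 3.37. These remaining differences from 0 d, −0.54 at 6 d and −0.35 at 9 d on the log2 scale, passed the adjusted p in limma (6.45e-05 and 0.00107) but not the fold limit. After rescaling, the 9 d value was −0.15 with a limma adjusted p of 0.128 (0.000891 to 0.128 over the alternatives). Between 9 d and 6 d the log2 difference of 0.18 did not pass (limma adjusted p = 0.0548), and the adjusted p ran from 0.0458 to 0.175 over the alternatives.

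CYR61 (CCN1), an angiogenic matrix protein and, like CTGF, a common readout of YAP and TAZ activity, had another course. Its 0 d libraries held 342, 345 and 356 FPKM. The 3 d libraries held 162, 184 and 197 FPKM. At 6 d CYR61 stood at 572, 639 and 629 FPKM, and at 9 d at 364, 359 and 325 FPKM. The 6 d libraries were the highest and the 3 d libraries the lowest, without overlap, while the 0 d libraries lay within the range of 9 d. At 3 d CYR61 was 1.92-fold lower than at 0 d, with a fitted log2 difference of −0.95 (95% confidence interval −1.12 to −0.77, limma adjusted p = 3.62e-06), just short of the fold limit. Without the third 3 d replicate the difference was −1.01 and called. The only called change of CYR61 was the rise from 3 d to 6 d, 3.39-fold by the means (log2 1.76, SE 0.0785, limma adjusted p = 5.6e-08). At 6 d it was at 176.4% ± 10.5 (SD, n = 3) of its 0 d mean (log2 0.82, limma adjusted p = 2.55e-05, not called). At 9 d it was at 100.4% ± 6.10, and the log2 difference from 0 d was 0.00 (95% confidence interval −0.17 to 0.18), with a sign that changed among the alternatives.

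NOV (CCN3), known for binding integrins and NOTCH1 and often opposed in action to CTGF, was the member next in level to CTGF at 0 d. Its FPKM were 1392, 1314 and 1379 at 0 d. At 3 d they were 80.1, 86.9 and 88.6. At 6 d NOV had 592, 568 and 624 FPKM, and at 9 d 529, 536 and 615 FPKM. The 0 d libraries were above all others and the 3 d libraries below, while 6 d and 9 d overlapped. NOV fell by 4.0 on the log2 scale at 3 d (SE 0.0686, limma adjusted p = 7.72e-11), which is 16-fold between the means. It then rose by 2.80 from 3 d to 6 d (limma adjusted p = 1.06e-09). NOV was the only member called lower than at 0 d on all of the later days: the log2 fold changes of 6 d and 9 d were −1.20 and −1.28 (limma adjusted p = 6.76e-07 and 5.66e-07), or 43.7% ± 2.06 and 41.1% ± 3.51 of the 0 d mean (SD, n = 3). From 6 d to 9 d the log2 difference was −0.09 (limma adjusted p = 0.437).

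WISP1 (CCN4), a target of Wnt signalling that is released by fat tissue, had the lowest level of the family at 0, 6 and 9 d. It stood at 9.93, 8.71 and 9.77 FPKM at 0 d. At 3 d the values were 0.14, 0.18 and 0.13 FPKM. At 6 d they were 7.12, 7.30 and 7.69 FPKM, and at 9 d 13.0, 14.1 and 11.8 FPKM. No days overlapped, and WISP1 was the only member whose highest day was 9 d. The mean at 3 d was 63.1-fold lower than at 0 d, and the fitted value fell by 5.26 on the log2 scale (SE 0.102, limma adjusted p = 1.45e-10). At so low a level the fitted size depends on the value added before the logarithm, and the alternatives ran from −5.90 to −3.18. The mean at 6 d was 49.1-fold higher than at 3 d (log2 4.91, limma adjusted p = 4.42e-10). At 6 d WISP1 was at 77.8% ± 3.08 (SD, n = 3) of its 0 d mean, a log2 difference of −0.36 (limma adjusted p = 0.0214), and after rescaling it was −0.19 with a limma adjusted p of 0.22 (0.00851 to 0.22 over the alternatives). At 9 d WISP1 was at 137.1% ± 12 (SD, n = 3) of its 0 d mean, a log2 difference of 0.45 (limma adjusted p = 0.00637), and between 6 d and 9 d the difference was 0.81 (limma adjusted p = 0.000406). None of these exceeded the fold limit.

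WISP2 (CCN5), the member without the cystine knot, is known to be secreted by mesenchymal precursor cells and to hold them back from the adipocyte fate. The 0 d libraries had 325, 334 and 345 FPKM, a level close to that of CYR61. Of the 3 d libraries, the first had 0.97 FPKM and the other two were listed at 0. At 6 d WISP2 stood at 40.4, 36.4 and 42.5 FPKM, and at 9 d at 247, 262 and 254 FPKM. The days did not overlap, and the order was 0, 9, 6 and 3 d. With libraries listed at 0, no ratio of FPKM is given for 3 d. The fall was called (limma adjusted p = 9.57e-07), and its fitted size ran from −12.83 to −8.07 with the value added before the logarithm and the library left out. The rise from 3 d to 6 d was called as well (limma adjusted p = 1.67e-05), with a fitted size between 5.02 and 9.75 on the log2 scale. WISP2 at 6 d was 11.9% ± 0.927 (SD, n = 3) of its 0 d mean, 8.42-fold lower (log2 −3.07, SE 0.733, limma adjusted p = 0.00853). With 0.01 added in place of 0.1 that adjusted p was 0.129 (8.84e-09 to 0.129 over the alternatives) and the call was lost.

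From 6 d to 9 d WISP2 rose 6.40-fold (log2 2.68, limma adjusted p = 0.028). This call was lost with 0.01 added (limma adjusted p = 0.234), without the filter on low values (0.0826) and without any single library of 6 d or 9 d (0.0659 to 0.0774). In a fit of only the 6 libraries of these days, which leaves out the spread of the 3 d libraries, the limma adjusted p was 0.000109, and the alternatives spanned 1.39e-07 to 0.234. At 9 d WISP2 was at 76.0% ± 2.16 (SD, n = 3) of its 0 d mean, with a log2 difference of −0.40 (95% confidence interval −2.03 to 1.24, limma adjusted p = 0.716). The fit of the 6 libraries of 0 d and 9 d gave the same difference with a limma adjusted p of 0.00296 (0.0014 to 1.0 over the alternatives), below the fold limit in both.

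**Figure D2:**
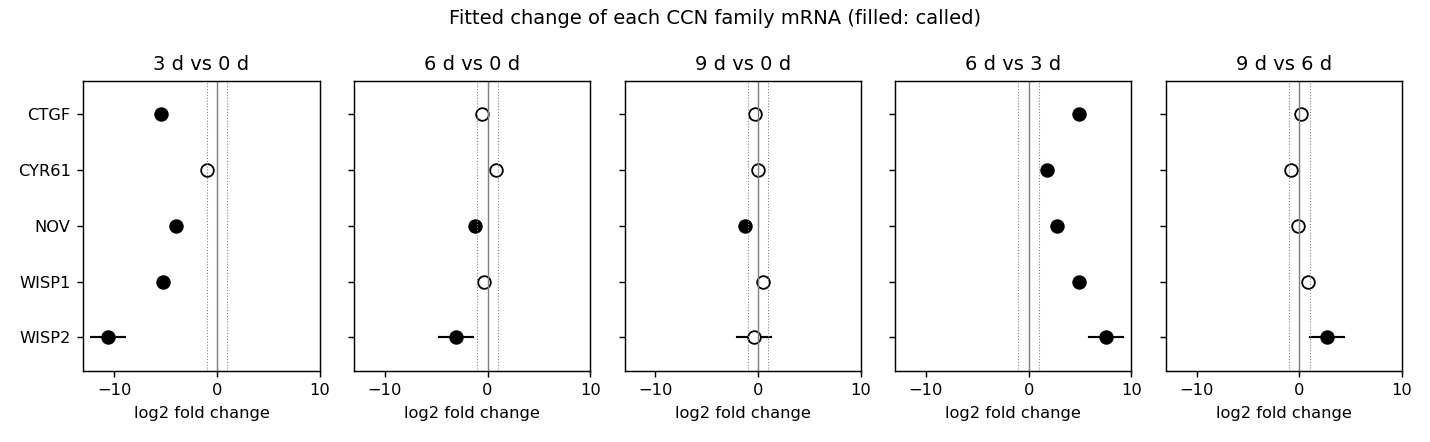
Fitted log2 fold change of each member (horizontal axis) in the 5 comparisons, with 95% confidence intervals as lines, often narrower than the symbol. Filled symbols are called and dotted lines mark the fold limit of 1. At 3 d against 0 d every member but CYR61 is called lower, and at 6 d against 3 d all are called higher. The wide intervals of WISP2 come with a standard error of 0.733.

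WISP3 (CCN6), a related gene in the same table that was not among the chosen members, was near the lower end of measurement. It ranged from 0 to 2.90 FPKM over the 12 libraries, was listed at 0 in all of the 9 d libraries, and was not called in any comparison.

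Together the 5 members had 4490 ± 124 FPKM at 0 d (mean and SD, n = 3). The sums of the later days were 323 ± 24.3, 2937 ± 140 and 3084 ± 87.3 FPKM. This corresponds to 7.19%, 65.4% and 68.7% of the 0 d level, and the 3 d figure was 7.64% after rescaling. In shares of all mRNA FPKM, the family held 0.343% ± 0.00709, 0.0259% ± 0.00161, 0.224% ± 0.00907 and 0.228% ± 0.0105 in the order of days. The ranges of 6 d and 9 d overlapped in both measures.

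Because the members moved by different amounts, the make-up of the family differed between days. CTGF provided 54.3% ± 0.406, 17.5% ± 0.719, 57.3% ± 0.543 and 61.8% ± 1.12 of the summed member FPKM at 0, 3, 6 and 9 d (SD, n = 3). CYR61 provided 7.75% ± 0.240, 55.9% ± 1.37, 20.9% ± 0.710 and 11.3% ± 0.810 on these days, so that at 3 d it was the leading member. NOV went from 30.3% ± 0.130 at 0 d to 26.4% ± 0.693, 20.3% ± 0.966 and 18.2% ± 1.58. WISP2 provided 7.46% at 0 d, 1.36% at 6 d and 8.25% at 9 d, and WISP1 no more than 0.444% in any library.

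The ratio of CTGF to CYR61 was compared because both are read side by side as targets of YAP and TAZ. It was 7.31, 6.79 and 6.92 in the 0 d libraries. At 3 d it was 0.336, 0.299 and 0.304, at 6 d 2.77, 2.65 and 2.81, and at 9 d 5.06, 5.57 and 5.79. All days were separate, and at 3 d CTGF was the lower of the pair. An exact permutation test of the F statistic of the log2 ratio over 15400 partitions of the 12 libraries into 4 days of 3 gave p = 6.49e-05, the smallest value that it can give. Both genes were chosen with earlier results of these data known, so this p only describes the separation of the days.

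**Figure D3:**
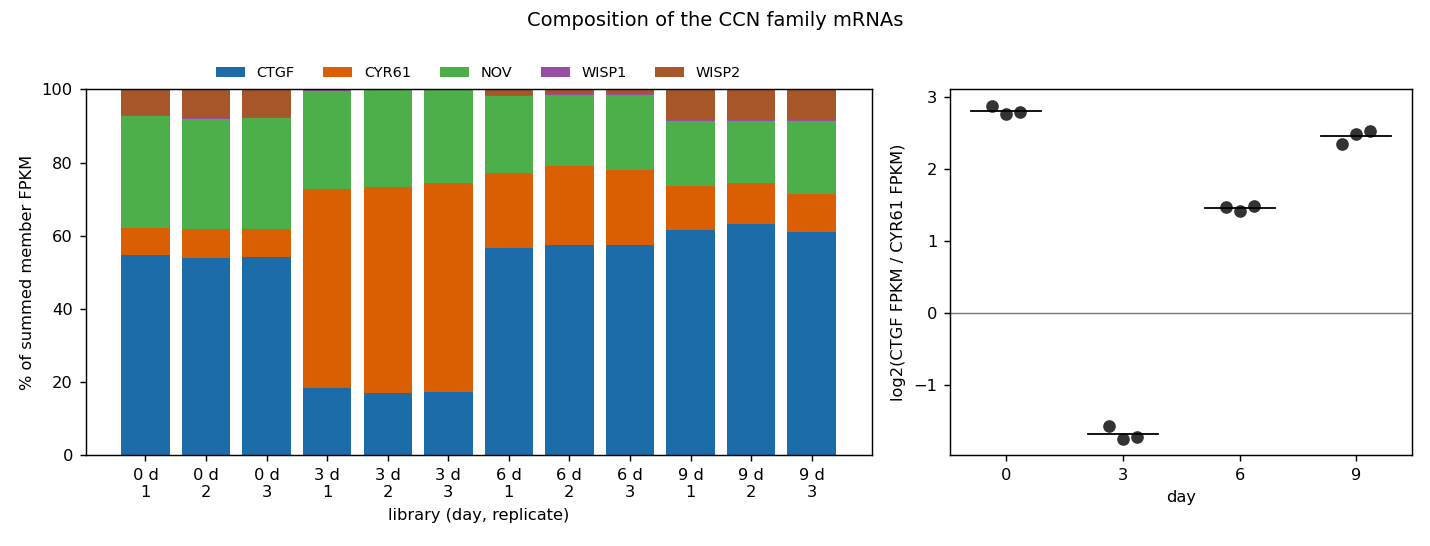
Left, share of each member in the summed FPKM of the family in each library, in percent. Right, log2 of the ratio of CTGF to CYR61 FPKM by day, with points for libraries and bars for the means of 3. CYR61 takes between 54.4% and 57.0% at 3 d and no more than 21.7% in any other library, and the log2 ratio is negative in the 3 d libraries alone.

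Receptors and partners of CCN proteins were read beside the members. Called counts of this and the following lists are to be read against the shares over all tested mRNAs. These were 8.06% called higher and 15.2% lower at 3 d against 0 d, and 9.85% and 9.23% at 6 d against 3 d. Against 0 d they were 3.39% and 7.97% at 6 d, and 3.41% and 7.47% at 9 d. Of 15 receptor genes, 12 were tested, and 2 were called higher and 4 lower at 3 d than at 0 d (median log2 −0.51, against −0.06 for all mRNAs). Only 1 was called higher with a pseudocount of 1, without the second 0 d or without the second 3 d replicate, and 3 were called lower after rescaling, without the first 0 d or without the second 3 d replicate. Integrin beta 3 (ITGB3), which pairs with integrin alpha V as a receptor of CTGF and CYR61, went from 207 ± 7.53 to 23.5 ± 1.33 FPKM (log2 −3.13, limma adjusted p = 1.27e-10) and returned to 195 ± 6.16 at 6 d. LRP6, a Wnt coreceptor that CTGF can bind, rose from 6.39 ± 2.20 to 20.4 ± 1.37 FPKM (log2 1.72, limma adjusted p = 0.0014). The most abundant receptor mRNA was LRP1, an endocytic receptor of CTGF, with 42272 ± 1644 FPKM at 0 d and 67866 ± 2750 at 3 d (log2 0.68, not called), followed by the mannose 6-phosphate receptor IGF2R with 969 ± 26.3 and 1107 ± 57.2 FPKM. ITGAM was listed at 0 in all libraries. Between 3 d and 6 d, 5 receptor genes rose and 2 fell by these criteria (median log2 0.55).

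Of 10 matrix and growth factor partners, 2 were called higher and 0 lower at 3 d (8.06% and 15.2% of all tested mRNAs, median log2 −0.27). The proteoglycan decorin (DCN), which binds CTGF, rose most (log2 2.09, limma adjusted p = 1.9e-10) and had 44464 ± 609 FPKM at 9 d. Fibronectin (FN1) had 3398 ± 109 FPKM at 0 d and 2723 ± 145 at 3 d (log2 −0.32, not called) and was called higher at 6 d with 7243 ± 175 FPKM (log2 1.09, limma adjusted p = 1.34e-07).

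Among the genes of the Hippo pathway with its effectors and TEAD factors, 18 of 19 were tested, and STK4 was not listed under that symbol. At 3 d 1 was called higher and 4 lower (8.06% and 15.2% of all tested mRNAs, median log2 −0.47). Without the first 0 d replicate, 2 were called higher. The coactivator YAP1 was called lower, with 882 ± 68.9 FPKM at 0 d and 311 ± 132 at 3 d (limma log2 −1.61, SE 0.291, adjusted p = 0.000957), and stood at 1005 ± 16.2 at 6 d. Its paralogue WWTR1, which encodes TAZ, had 438 ± 56.1 FPKM at 0 d and 749 ± 186 at 3 d (log2 0.75, limma adjusted p = 0.00356, not called). The DNA-binding partner TEAD1 stood at 49.2 ± 2.79 and 35.2 ± 6.81 FPKM (limma adjusted p = 0.138). The kinase STK3 had 563 ± 42.0 and 412 ± 25 FPKM (log2 −0.45, not called). Among the cofactors of TEAD proteins, VGLL3 was called lower (log2 −2.58, limma adjusted p = 5.31e-07) and VGLL4 rose by 1.34 (limma adjusted p = 1.17e-05). At 6 d against 0 d, 0 of the 18 genes were called by limma.

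Of 20 other targets of YAP and TAZ, 3 were called higher and 10 lower at 3 d (8.06% and 15.2% of all tested mRNAs, median log2 −0.99). The largest called fall was that of the receptor tyrosine kinase AXL, from 183 ± 4.50 to 9.12 ± 2.66 FPKM (log2 −4.35, limma adjusted p = 7.65e-09). ANKRD1, a nuclear ankyrin repeat protein, went from 94.3 ± 3.78 to 16.5 ± 1.13 FPKM (log2 −2.51, limma adjusted p = 1.39e-08) and, with 20.9 ± 2.60 FPKM at 9 d, was still called lower than at 0 d. The transmembrane protein CRIM1 was the most abundant of the list, with 6910 ± 143 FPKM at 0 d and 1454 ± 403 at 3 d (log2 −2.29, limma adjusted p = 1.36e-06), followed by MYOF with 729 ± 14.5 and 412 ± 14.9 FPKM (log2 −0.82, not called). The coagulation factor receptor F3 rose by 1.95 (limma adjusted p = 4.03e-07). At 6 d against 3 d, 7 of the 20 genes were called higher and 1 lower.

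Of 16 targets of SRF and MRTF, which link the actin cytoskeleton to transcription, 15 were tested, and TPM1 was not listed under that symbol. At 3 d 14 were called lower and 0 higher (15.2% and 8.06% of all tested mRNAs, median log2 −2.78). Under each alternative 13 or 14 were called lower. ACTA2, smooth muscle actin, fell from 1697 ± 70.1 to 26.8 ± 2.17 FPKM (log2 −5.98, limma adjusted p = 7.22e-12) and stood at 1583 ± 69.3 at 6 d and 598 ± 30.2 at 9 d. The actin crosslinker FLNA fell from 8560 ± 192 to 1634 ± 134 FPKM (log2 −2.39, limma adjusted p = 7.91e-10). The nonmuscle myosin MYH9 went from 3235 ± 15.1 to 1420 ± 60.1 FPKM (log2 −1.19, limma adjusted p = 3.53e-09). From 3 d to 6 d, 11 of the 15 were called higher and 0 lower (median log2 2.71), and against 0 d 4 were called higher and 0 lower at 6 d, and 0 higher and 4 lower at 9 d.

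Targets of other signals were read in the same way. Of 12 Wnt target genes only 6 passed the filter. Among them 3 were called higher and 2 lower at 3 d (8.06% and 15.2% of all tested mRNAs, median log2 0.53). The lower calls numbered 0 with a pseudocount of 1 or a minimum mean of 1 FPKM, and 1 with a pseudocount of 0.01. AXIN2, the general feedback target of the pathway, had at most 0.09 FPKM in any library and was not tested. The Wnt antagonist DKK1, for which every 0 d library is listed at 0, ranged from 10.1 to 11.8 FPKM at 3 d. Its range at 9 d was 0.17 to 0.30 FPKM. APCDD1, another antagonist, went from 1.3 ± 0.154 to 21.2 ± 2.67 FPKM (log2 3.93, limma adjusted p = 3.76e-09). NKD2 fell by 1.32 (limma adjusted p = 0.000145), and the value was −0.62 with a pseudocount of 1. ZNRF3 had 11.7 ± 0.955 and 9.31 ± 1.00 FPKM (log2 −0.33, not called).

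Of 10 targets of transforming growth factor beta, 8 were tested, and SKI and LDLRAD4 were not listed under these symbols. At 3 d 1 was called higher and 1 lower (median log2 0.26). This is near the shares over all tested mRNAs, 8.06% and 15.2%. Without the second 0 d replicate, 2 were called lower. The latent binding protein LTBP2 went from 3811 ± 36.5 to 1605 ± 281 FPKM (log2 −1.26, limma adjusted p = 7.36e-05). BAMBI, a pseudoreceptor, rose from 0.277 ± 0.0702 to 0.753 ± 0.214 FPKM (log2 1.17, limma adjusted p = 0.000761), and this call was lost without the second 3 d replicate (log2 0.97) and with a pseudocount of 1 (log2 0.45), and its level was too low for a minimum mean of 1 FPKM.

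Lists for the agents of the induction cocktail were read in the same libraries. Of 8 glucocorticoid response genes 7 were tested, and KLF9 was not listed under that symbol. At 3 d 5 were called higher and 1 lower (8.06% and 15.2% of all tested mRNAs, median log2 2.09). ZBTB16 went from 0.343 ± 0.162 to 282 ± 105 FPKM (log2 9.29, limma adjusted p = 8.7e-09) and had 12.3 ± 2.92 at 9 d. The phosphatase DUSP1 went from 282 ± 18.3 to 629 ± 25.4 FPKM (log2 1.16, limma adjusted p = 3.04e-07). ERRFI1 was lower at 3 d (log2 −1.01), a call that ended after rescaling (log2 −0.92), with a pseudocount of 1 (log2 −0.96) and without the second 0 d, the first 3 d or the second 3 d replicate (log2 −0.93, −0.98 and −0.98). Of 9 cAMP response genes, 2 rose and 0 fell at 3 d by these criteria (8.06% and 15.2% of all tested mRNAs, median log2 0.63). They were PDE4D, with 119 to 725 FPKM at 3 d against 53.1 to 82.8 at 0 d (log2 2.56, limma adjusted p = 0.00736), and SIK1 (log2 1.16, limma adjusted p = 4.03e-05). The 3 d libraries of PDE4D differed widely (520 ± 347 FPKM), so that its fitted size depends on single libraries. Whether these signals had a part in the levels of the CCN members was not tested.

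**Figure D4:**
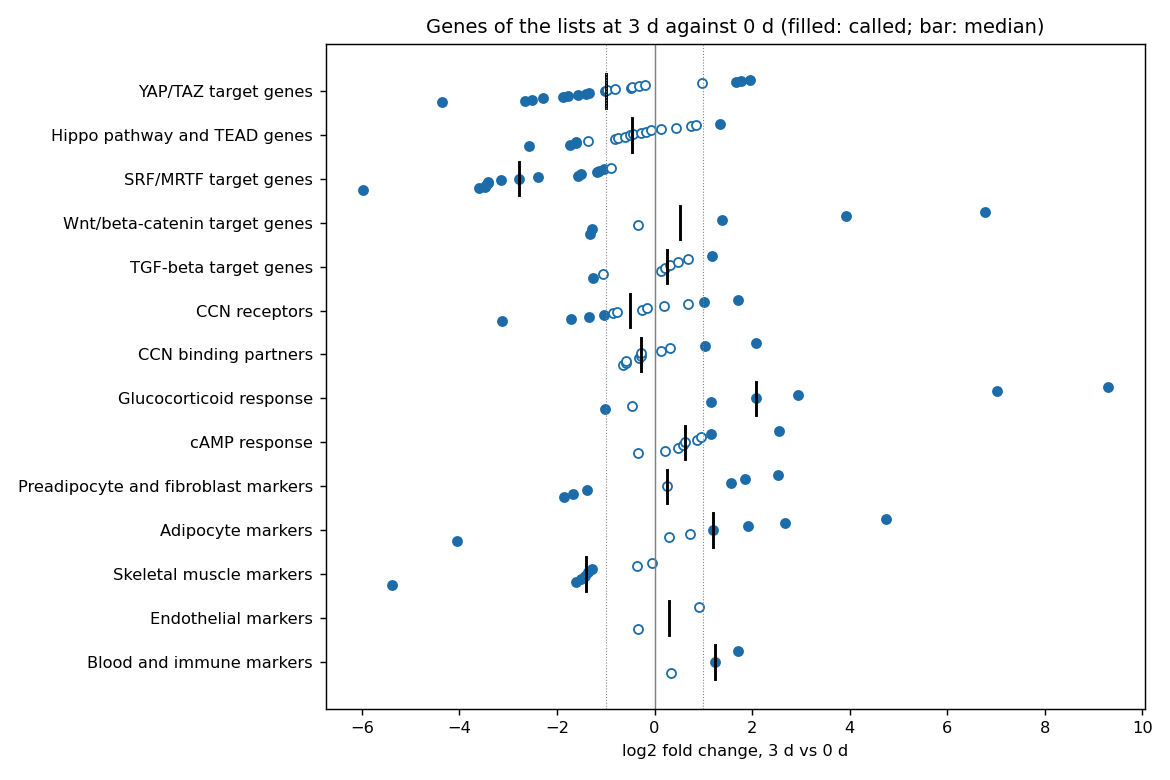
Fitted log2 fold change at 3 d against 0 d (horizontal axis) of each tested gene of the gene lists (vertical axis). Filled points are called, black bars are medians of the lists and dotted lines mark the fold limit of 1. In the list of SRF and MRTF targets 14 of 15 points are filled, all on the lower side. The list for the glucocorticoid response has 5 filled points on the higher side and 1 on the lower. Over all tested mRNAs 8.06% were called higher and 15.2% lower.

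Cell type markers were read for the same libraries, and their part in the levels of the CCN members was not tested. Of 8 preadipocyte and fibroblast markers, 7 were tested, and 3 were called higher and 3 lower at 3 d (8.06% and 15.2% of all tested mRNAs). PDGFRA went from 160 ± 10.5 to 930 ± 31.5 FPKM (log2 2.54) and COL1A1 from 3018 ± 111 to 941 ± 57.1 FPKM (log2 −1.68), LUM rose by 1.56, and CD34 was below 1 FPKM in every library (log2 −1.85, and −0.56 and not called with a pseudocount of 1). DLK1 was below 1 FPKM throughout. The list summed to 4166 to 4349 FPKM at 0 d and 3028 to 3231 at 3 d. Of 9 adipocyte markers 7 were tested, and PPARG and PLIN1 were not listed under these symbols, so their levels are unknown here. At 3 d 4 were called higher and 1 lower (8.06% and 15.2% of all tested mRNAs). At both 6 d and 9 d 5 were called higher (3.39% and 3.41%). With a pseudocount of 1 or a minimum mean of 1 FPKM, 2 were called higher at 3 d. FABP4 had 3.30 ± 0.255 FPKM at 0 d, 91.1 ± 4.42 at 3 d and 9.07 ± 1.61 at 9 d. LEP ranged from 2.17 to 2.47 FPKM at 0 d, reached no more than 0.21 at 3 d and stood between 16.6 and 25.3 at 9 d, so that it too was lowest at 3 d. The summed level of the adipocyte list was between 10.3 and 11.1 FPKM before induction, and the later days had 98.2 to 109, 38.9 to 40.6 and 32.9 to 41.4 FPKM.

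Skeletal muscle markers were present in the cultures and moved with the days. Of 9 such genes 8 were in the table and tested, and none of these 8 was at 0 in all libraries. At 3 d 6 were called lower and 0 higher, at 6 d 6 and 0, and at 9 d 7 and 0, each against 0 d. Over all tested mRNAs 15.2%, 7.97% and 7.47% were called lower on these days, and 8.06%, 3.39% and 3.41% higher. The summed FPKM of the 8 muscle genes were 827, 868 and 941 at 0 d and 271, 300 and 295 at 3 d. At 6 d they were 399, 379 and 421, and at 9 d 328, 293 and 325. All later libraries lay below those of 0 d without overlap, and the part of muscle cells in the levels of the CCN members was not tested. The most abundant was DES, the muscle intermediate filament, with 393 ± 24.4 FPKM at 0 d and 138 ± 11.3 at 3 d, followed by the myogenic regulator MYOD1 with 268 ± 32.5 and 109 ± 2.88 FPKM. CKM, muscle creatine kinase, had the largest fall (log2 −5.39, limma adjusted p = 2.01e-07).

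Endothelial markers stayed near the floor: 4 of 6, among them PECAM1 and CDH5, were below 1 FPKM in every library, and their summed level was 2.47 to 3.51 FPKM over all libraries. The most abundant of them was VWF with 2.20 ± 0.246 FPKM at 0 d and 1.73 ± 0.149 at 3 d, and TEK had 0.773 ± 0.137 and 1.53 ± 0.0987, neither called. Without the second 0 d replicate TEK was called higher (log2 1.02). Of 6 blood and immune markers, PTPRC and HBB were listed at 0 in all libraries, and the summed level lay between 1.1 and 1.34 FPKM at 0 d, with 3.36 to 3.69, 1.82 to 1.87 and 2.20 to 3.36 FPKM on the later days. CD14 was the most abundant (0.673 ± 0.168 FPKM at 0 d and 2.40 ± 0.336 at 3 d), and CSF1R was called higher at 3 d as well (log2 1.23), a call lost with a pseudocount of 1 and without the third 0 d replicate.

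For each member, the mRNAs with the most similar course were the 5 with the highest Pearson r over the 12 libraries on log2(FPKM + 0.1). Candidates were 10217 mRNAs with a mean of at least 1 FPKM, leaving out the family itself and symbols that start with LOC. The 12 libraries fall into 4 days, so that r mainly follows 4 means, and it is given as a description. For CTGF they were SETD7 (r = 0.999), CNN2, FADS3, KIAA0040 and EMP3. SETD7, a lysine methyltransferase, had 126 ± 3.66, 47.9 ± 0.200, 116 ± 1.12 and 121.5 ± 3.29 FPKM at 0, 3, 6 and 9 d, the same order of days as CTGF apart from a smaller range. EMP3, a membrane protein, had 112.5 ± 5.30, 0.907 ± 0.158, 49.1 ± 2.48 and 62.1 ± 7.52 FPKM.

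For CYR61 the most similar were ACTG2 (r = 0.993), ERGIC1, CNN1, SEC31A and MAPK6. ACTG2, an actin of smooth muscle, had 194 ± 7.41, 17.6 ± 2.28, 1430 ± 52.7 and 219 ± 14.7 FPKM in the order of days, with the same peak at 6 d. CNN1, a calponin that binds actin, had 11.8 ± 1.75, 1.03 ± 0.226, 47.5 ± 4.83 and 13.1 ± 1.62 FPKM.

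For NOV they were MYL2 (r = 0.999), the row of SLC22A15 and LOC101905053, PARVA, SLC7A11 and TMSB4X. MYL2, a myosin light chain of muscle, had 38 ± 2.38, 1.16 ± 0.1, 13.3 ± 0.140 and 13.2 ± 0.631 FPKM on the 4 days, and like NOV it had similar levels at 6 d and 9 d. For WISP1 they were FST (r = 0.998), RAB31, VLDLR, PKN3 and CEMIP. FST, which encodes the activin antagonist follistatin, had 25.1 ± 1.31, 0.35 ± 0.05, 17.4 ± 1.05 and 32.4 ± 2.52 FPKM, and CEMIP, a protein of hyaluronan breakdown, 1226 ± 27.4, 170.0 ± 6.96, 929.7 ± 19.6 and 1265 ± 52.8 FPKM. For WISP2 they were KIAA1217 (r = 0.991), SPINT2, NACC2, KLHL42 and CCDC69, and CCDC69 had 11.1 ± 1.24, 0.833 ± 0.329, 5.52 ± 0.549 and 8.22 ± 1.18 FPKM.

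Circular RNAs, formed when an exon end joins an upstream exon start, gave another readout of the same genes. The circRNA table held 14070 circRNAs with 95674 back-spliced reads, between 5358 and 10729 in a library. Of these, 3 circRNAs had a member as host gene, with 10 reads together. circRNA9289 of CYR61 (chr3:58488748-58488947, minus strand, ARS-UCD1.2) had 4 reads in the second and 2 in the third 6 d replicate, the day of highest CYR61 mRNA. circRNA11731 of CTGF (chr9:69887411-69887552, minus strand) had 3 reads, all in the second 9 d replicate, and circRNA3792 of WISP1 (chr14:8140540-8142403, minus strand) had 1 read in the third 0 d replicate. All other libraries had 0 reads for these circRNAs, and no circRNA with NOV or WISP2 as host was listed. These counts are too few to compare days.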

How the data were processed

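Poly(A) selection is described in the labels and rRNA depletion in the study's methods. The authors mapped reads to the bovine genome ARS-UCD1.2 and deposited FPKM per gene and library. The submitters' processing notes list HISAT2 2.0, StringTie 1.3.0 and the build mm8, which is not bovine. The deposited circRNA values are counts of back-spliced reads. Reads were not mapped again, and lncRNA and miRNA tables were not used here.

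The methods name edgeR, but FPKM are not counts, so limma 3.58.1 in R 4.3.3 (lmFit, contrasts.fit, eBayes with trend) was fitted to log2(FPKM + 0.1) of the 12 libraries together (1 mean per day) and was tried on simulated data. FPKM cannot be turned back into reads, so the precision of a fold change comes from the spread between libraries. This spread is pooled over the 12 libraries, and WISP2 has the same standard error of 0.733 in every comparison. Tables and figures used Python 3.11.15, NumPy 2.4.6, pandas 2.3.3 and Matplotlib 3.10.9.

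Members and gene lists were chosen with earlier results of these data known. Named genes were the members, and from each list the called genes with the largest rise and fall at 3 d, the 2 most abundant and core genes of the pathways (such as YAP1, WWTR1, TEAD1, AXIN2 and ANKRD1); results of some list genes are not reported here. The fits were repeated with 1 or 0.01 as pseudocount, unfiltered, with a minimum mean of 1 FPKM, after rescaling by the median ratio, with only the 6 libraries compared, with a replicate block and with each library left out. Their use on the gene lists was added after the data were seen. Current gene symbols come from RefSeq (ARS-UCD2.0), of which no coordinates were used.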

Additional observations from a re-analysis of the deposited data

How the results depend on the processing

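Of 475 fold changes of members under 19 alternatives, 465 kept their side of the call and 0 called changes reversed, while 9 calls were lost and 1 was gained. All of these concern WISP2 and CYR61. CYR61 at 3 d ran from −1.01 to −0.87 (log2) with a library left out and was called without the third 3 d replicate. WISP2 at 6 d against 0 d was no longer called with a pseudocount of 0.01 (log2 −3.08, limma adjusted p = 0.129). At 9 d against 6 d it was not called with that pseudocount or without the filter on low values (log2 2.68 in both), or without a library of 6 d or 9 d (log2 2.62 to 2.73 with a library left out). Without the first 3 d replicate, the only one of its day above 0, the adjusted p was 8.84e-09 at 6 d against 0 d and 1.39e-07 at 9 d against 6 d. The ratio of CTGF to CYR61 differed by −4.49 (log2) between 3 d and 0 d, and by −4.54 to −4.45 with a library left out.

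The number of called mRNAs moved most with a pseudocount of 1, to 2184, 967 and 888 at 3, 6 and 9 d against 0 d from 3585, 1749 and 1675. At 6 d against 3 d it went from 2939 to 1688 and at 9 d against 6 d from 683 to 368. A minimum mean of 1 FPKM gave 1114 at 9 d against 0 d, with fewer mRNAs tested. Of the calls against 0 d, 34.6%, 29.8% and 31.3% were higher, and 39.8%, 40.6% and 46.5% after rescaling.

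Libraries of different days share replicate numbers, but deviations of same-numbered libraries from their group means correlated at −0.0757 to 0.0947 in 18 pairs, 0 of them over 0.1, and 6 of 12 libraries correlated best with their own number. With a replicate block, 3591, 1746 and 1683 mRNAs were called against 0 d, no call of a member changed, and the permutation p of the ratio was 0.00174, the smallest that 576 arrangements can give. How far depth limits WISP1, WISP2 and the lists near 0 FPKM is unknown.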
